A study of Mus musculus with 6 samples.

Results

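The 8 genes described here encode osteopontin (Spp1), SPARC (Sparc), tenascin C (Tnc), thrombospondins 1 and 2 (Thbs1 and Thbs2), periostin (Postn), fibronectin (Fn1) and the transforming growth factor beta induced protein (Tgfbi). They were taken by gene name from a count table of 54532 mouse genes, and all 8 were found. The samples are 6 RNA sequencing libraries of cells labelled Glu-tag, the name of a mouse enteroendocrine line, with small intestine given as the tissue. The groups are sh-control cells of genotype WT, called shControl here, and sh-IRS2 cells of genotype IRS2 Knockdown, called shIRS2, with 3 libraries each, numbered 1 to 3 in the titles. The series text calls the knockdown stable and the replicates biological. Neither the hairpin sequences nor whether a line is a single clone are stated by the labels. The comparisons asked whether the RNA of these genes differed between the hairpin groups, and whether it differed between the replicate numbers.

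Matricellular proteins are secreted into the extracellular matrix, where they act on cells rather than bearing load. They bind integrins, CD44, CD47 and syndecans, as well as growth factors and collagens, and they change adhesion, migration and matrix assembly. Fibronectin is a structural glycoprotein that cells assemble into fibrils through integrins. Several of these genes are known targets of transforming growth factor beta. In the intestine the family is known mainly from stromal cells and from wounds and tumours.

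The libraries held 14991019 to 19790073 counts. Irs2 RNA, the target named by the label, was 31.6, 22.7 and 34.3 CPM (counts scaled to 1000000 per library) in shControl 1 to 3 and 31.4, 28.6 and 38.7 CPM in shIRS2 1 to 3. It differed by 0.17 on the log2 scale (SE 0.16, edgeR adjusted p = 1.00), so the target does not show the label's direction and directions below are those of the libraries labelled shIRS2. The cells' defining markers were largely absent. Of 10 enteroendocrine markers, Gcg, Chga, Pcsk1, Neurod1 and Pyy had 0 counts in all 6 libraries and 9 had a mean under 1 CPM, while Pax6 stood at 23.7 CPM. Of 6 epithelial markers Cdx2 had 0 counts and 4 had a mean under 1 CPM, while Krt8 stood at 396 CPM and Krt18 at 4.85 CPM. Among fibroblast markers Col3a1 stood at 735 CPM and Pdgfra at 57.6 CPM, Thy1 had 0 counts, and 5 of 10 had a mean under 1 CPM. Leukocyte, smooth muscle and endothelial markers summed to at most 22.5, 3.30 and 2.60 CPM in any library. The data thus go against the label's cell type, and no other name is given to the cells here.

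The 8 genes covered a wide range of levels. On the deposited FPKM scale, which divides by gene length and allows genes to be compared, Spp1 averaged 845 ± 99.3 FPKM (SD over 6 libraries) and ranked 24 among 22046 protein-coding genes. Sparc followed at 86.9 ± 9.61 FPKM, Thbs2 at 43.2 ± 8.20, Fn1 at 26.1 ± 5.14, Tgfbi at 4.60 ± 0.972, Thbs1 at 1.67 ± 0.812 and Tnc at 0.578 ± 0.139. Neighbours in that order did not overlap in any of the 6 libraries, though some came close. The lowest library of Thbs2 had 31.4 FPKM and the highest of Fn1 30.7. The lowest of Thbs1 had 0.805 and the highest of Tnc 0.766. The order of Thbs2 and Fn1 rests on their listed gene lengths, 7003 and 11685 bases, since before that division they averaged 304 and 306 CPM. Postn had 0 counts in every library. That allows at most 0.0295 CPM, taken as 3 counts over the 101561149 counts of all libraries. Such limits and the intervals on counts cover counting error only. The reads carry no molecular identifiers, so copies of the same molecule may have been counted more than once. Together the 8 genes took 0.200% to 0.269% of the counts of a library, and Spp1 alone made up 56.5% to 61.3% of their counts.

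**Figure D1:**
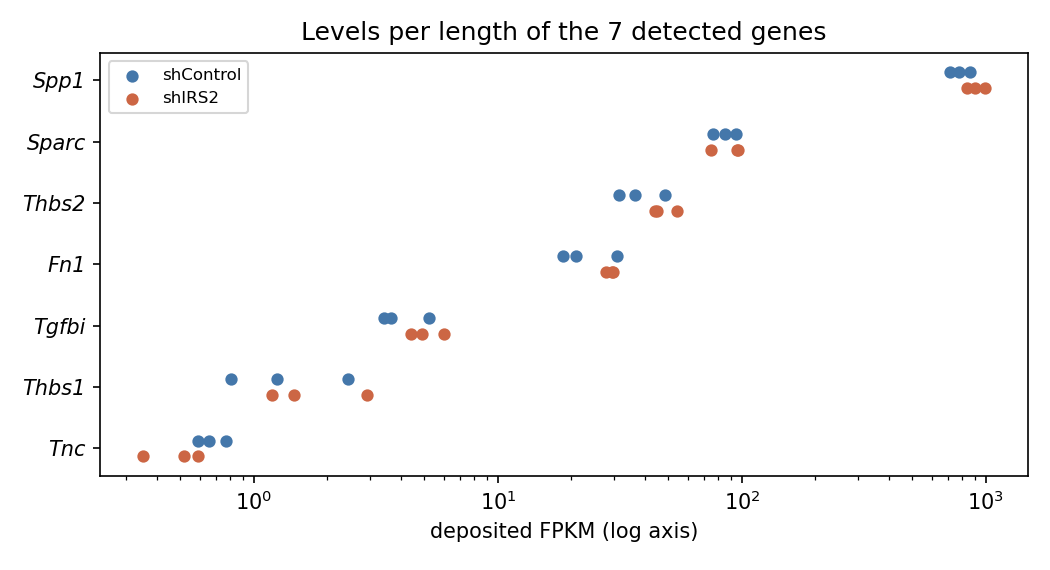
Deposited FPKM of the 7 detected genes in each library, on a log axis, with shControl in blue and shIRS2 in orange. Spp1 lies between 711 and 995 FPKM, above all others, and Tnc lies lowest, between 0.350 and 0.766 FPKM.

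The ends of that range, Spp1 and Postn, have sequence just upstream of their starts that can be set side by side. Of the 8 genes, 6 had an entry in the RefSeq promoter table (GRCm38.p6), which gives 250 bases before and 50 after each start, and Thbs1 and Fn1 had none. The 120 bases before the start are shown for Spp1 (chr5:104434991-104435110, plus strand) and Postn (chr3:54360987-54361106, plus strand), 5′ to 3′, with matches to the searched motifs in capitals.
Spp1: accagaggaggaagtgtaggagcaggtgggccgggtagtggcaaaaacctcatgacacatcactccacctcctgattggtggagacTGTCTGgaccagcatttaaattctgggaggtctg
Postn: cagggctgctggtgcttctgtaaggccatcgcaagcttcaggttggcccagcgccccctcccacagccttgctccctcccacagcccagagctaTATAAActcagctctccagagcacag
The capitals in Spp1 are the SMAD motif CAGACA on the reverse strand, at position -34 from the start, and those in Postn are the TATA motif TATAAA at -26. On both strands, TATAAA occurred in 13.6% and CAGACA in 21.0% of 32851 promoter windows of this length. The other motifs searched were TGANTCA (AP-1, in 7.81% of windows), TGACGTCA (CRE, 1.79%), GGAATG (TEAD, 14.7%) and CACGTG (E-box, 7.15%), and none of these letters occurred in the windows of the 6 genes. The 6 genes have 9 windows. For the starts shown above, the window of Spp1 also holds TATAAA at -211. The other windows of Spp1 (start 104436192) and Postn (start 54359267) hold none of the letters searched. Those of Tnc and Thbs2 hold both TATAAA and CAGACA, that of Sparc holds CAGACA, and that of Tgfbi holds none of the letters searched. The Sparc window is set on a start at 55420080, inside the gene as listed in the count table, which begins at 55423183 on the minus strand. These are matches of letters, and no binding was measured.

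No member passed the test between the hairpin groups, and in 6 of the 7 tested the estimate was above 0. The edgeR quasi-likelihood test called 0 of 7 at an adjusted p of 0.05, against 0 of 13472 genes overall (0.0%). At an unadjusted edgeR p under 0.05 there was 1 member, Spp1 (edgeR unadjusted p = 0.0498), against 1.94% of all genes tested, and DESeq2 and limma called 0 members and 0 genes. With the replicate number as a block, edgeR still called 0 of 7, against 1 gene of 13472 (0.00742%), with 3 members (Spp1, Tgfbi and Tnc) at an unadjusted p under 0.05 against 9.16% of all genes. The median log2 fold change was 0.29 over the 7 tested genes and 0.00 over all genes tested, of which 49.9% were positive. Postn had no counts and was not tested. Bulk RNA cannot tell fewer cells with a transcript from less of it per cell.

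**Figure D2:**
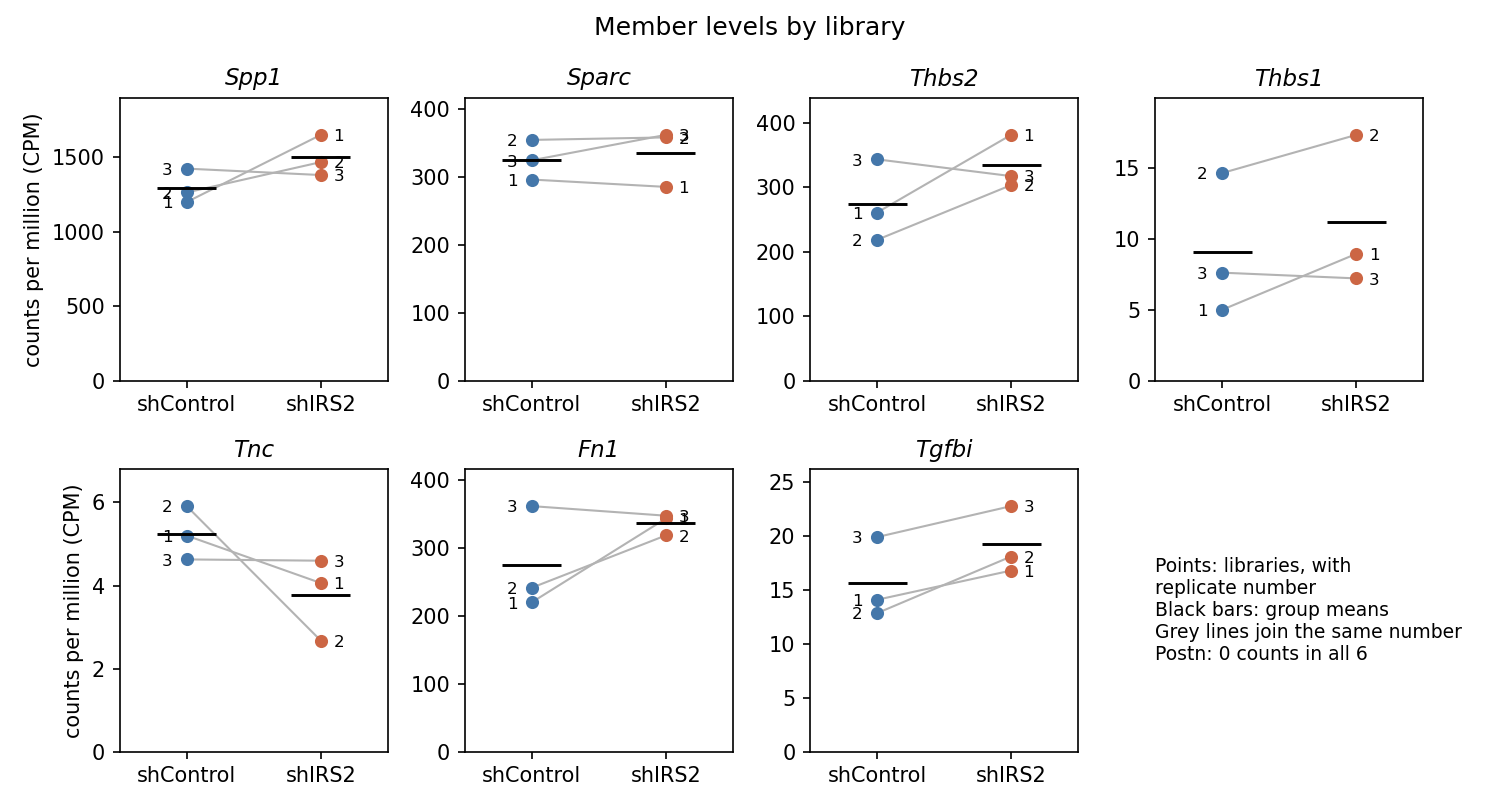
CPM of the 7 detected genes in every library, by hairpin group, each axis starting at 0. Points are libraries with their replicate number, black bars are group means and grey lines join libraries of the same number. Only Tnc has groups that do not overlap, and Thbs1 is highest in the libraries numbered 2.

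Spp1 encodes osteopontin, a secreted phosphoprotein that binds integrins and CD44. It lies at chr5:104435118-104441050 in mm10 on the plus strand. It stood at 1199, 1264 and 1424 CPM in shControl 1 to 3 and at 1650, 1467 and 1381 CPM in shIRS2 1 to 3. The group means were 1295 ± 116 and 1499 ± 138 CPM (SD, n = 3 each), and the groups overlapped, since shControl 3 exceeded shIRS2 3. On the log2 scale the groups differed by 0.22 (SE 0.10, 95% interval 0.00 to 0.45, edgeR adjusted p = 1.00). In the pairs of the same number it was 0.46, 0.22 and -0.04, so the third pair had the other sign. At 17976 to 28031 counts per library, counting error was at most 0.746% of the level, far under the 8.93% and 9.18% coefficients of variation within the groups. Gm42793, annotated on the same strand inside Spp1, held 384 counts against 141947 for Spp1.

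Fn1 encodes fibronectin, and it lies at chr1:71585520-71653200 on the minus strand. It stood at 220, 242 and 362 CPM in shControl 1 to 3 and at 344, 319 and 348 CPM in shIRS2 1 to 3. The shControl libraries spread widely, with a coefficient of variation of 27.8%, while the shIRS2 libraries lay within 4.66%. Both shControl 1 and shControl 2 were lower than every shIRS2 library, and shControl 3 was higher than all of them. The groups differed by 0.31 on the log2 scale (SE 0.17, 95% interval -0.07 to 0.68, edgeR adjusted p = 1.00), with pair values of 0.64, 0.40 and -0.06. That difference was 0.55 without shControl 3 and 0.16 without shControl 1. The annotation lists 17 Fn1 transcripts, and gene counts do not separate the spliced forms of fibronectin.

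Thbs2 encodes thrombospondin 2, a secreted glycoprotein that binds CD47 and matrix metalloproteinases and is known as an inhibitor of blood vessel growth. It stood at 260, 218 and 343 CPM in shControl 1 to 3 and at 381, 303 and 317 CPM in shIRS2 1 to 3. Here shControl 3 lay inside the shIRS2 range and the other controls lay below it. The estimate was 0.30 on the log2 scale (SE 0.15, 95% interval -0.05 to 0.64, edgeR adjusted p = 1.00), and the pairs had 0.55, 0.47 and -0.11. Leaving out 1 library gave 0.17 without shControl 2, 0.19 without shIRS2 1 and 0.49 without shControl 3. Thbs2 lies at chr17:14665500-14694235 on the minus strand.

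Tgfbi encodes a secreted protein with fasciclin domains that binds collagens and integrins, and it belongs to the same protein family as periostin. It stood at 14.1, 12.8 and 19.9 CPM in shControl 1 to 3 and at 16.8, 18.1 and 22.7 CPM in shIRS2 1 to 3. It was the only member with a positive log2 ratio in all 3 pairs, at 0.25, 0.49 and 0.19, although the groups overlapped. Its log2 difference was 0.31 (SE 0.19, 95% interval -0.11 to 0.73, edgeR adjusted p = 1.00), and with the replicate block 0.32 (SE 0.11, edgeR adjusted p = 0.390). Leaving out 1 library gave 0.18 without shIRS2 3, 0.19 without shControl 2 and 0.52 without shControl 3. Tgfbi lies at chr13:56609523-56639562 on the plus strand.

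Sparc encodes a collagen-binding glycoprotein of the matrix, also called osteonectin, and lies at chr11:55394500-55423183 on the minus strand. It stood at 296, 355 and 325 CPM in shControl 1 to 3 and at 285, 358 and 362 CPM in shIRS2 1 to 3. The group means, 325 ± 29.2 and 335 ± 43.2 CPM (n = 3 each), differed by less than the SD of either group. The log2 difference of 0.06 (SE 0.12, 95% interval -0.21 to 0.32, edgeR adjusted p = 1.00) puts the ratio of shIRS2 to shControl between 0.867 and 1.25, and its sign turned without shControl 1 (-0.019) or shIRS2 2 (-0.0053).

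Thbs1 encodes thrombospondin 1, which binds CD47 and CD36 and can activate latent transforming growth factor beta. It lies at chr2:118111876-118127133 on the plus strand. It stood at 5.00, 14.7 and 7.62 CPM in shControl 1 to 3, from 75, 290 and 135 counts, and at 8.95, 17.3 and 7.22 CPM in shIRS2 1 to 3, from 152, 285 and 113 counts. The groups overlapped, and the library numbered 2 was highest in each. Between the groups Thbs1 differed by 0.29 on the log2 scale (SE 0.43, 95% interval -0.68 to 1.27, edgeR adjusted p = 1.00). It was -0.19 without shIRS2 2 and 0.84 without shControl 2. With the replicate block it was 0.32 (SE 0.16, edgeR adjusted p = 0.558).

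Tnc encodes tenascin C, a large hexameric glycoprotein known for its rise in wounds and tumour stroma. It was the only member with a negative log2 fold change and the only one whose groups did not overlap, as was so for 3.1% of all genes with shIRS2 below and 3.26% with shIRS2 above. It stood at 5.20, 5.91 and 4.63 CPM in shControl 1 to 3, from 78, 117 and 82 counts, and at 4.06, 2.68 and 4.60 CPM in shIRS2 1 to 3, from 69, 44 and 72 counts. The gap between shControl 3 and shIRS2 3 was smaller than counting error, with exact Poisson 95% intervals of 3.68 to 5.75 and 3.60 to 5.79 CPM. Its log2 difference was -0.47 (SE 0.23, 95% interval -0.98 to 0.05, edgeR adjusted p = 1.00), and the pairs had -0.36, -1.14 and -0.01. Without shIRS2 2 it was -0.28, and without both libraries numbered 2 it was -0.17. Tnc lies at chr4:63959785-64047015 on the minus strand, where the antisense gene 8030451A03Rik held 16 counts against 462 for Tnc.

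Postn encodes periostin, a matrix protein with fasciclin domains that binds collagen and integrins, and lies at chr3:54361109-54391037 on the plus strand. With no counts in any library it shows no level to compare.

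**Figure D3:**
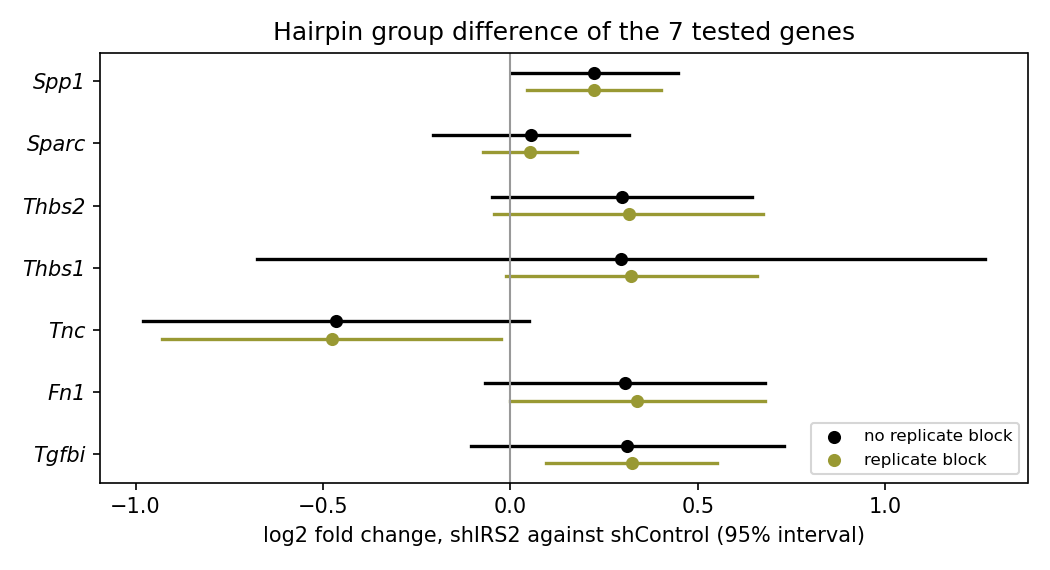
Log2 fold change of shIRS2 against shControl with 95% intervals for the 7 tested genes, without (black) and with (olive) the replicate number as a block. Tnc lies at -0.47 and the other 6 genes between 0.06 and 0.31, and the interval of Thbs1 is the widest without the block.

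By replicate number, Thbs1 was higher in the libraries numbered 2, Sparc was lower in those numbered 1 and Tgfbi was higher in those numbered 3. The edgeR test for any difference between the numbers, with the hairpin group as a term, called these 3 of 7 tested members, beside 19.6% of all genes tested. The numbers come from the titles, and no label says what libraries of a number share. The contrast of number 2 with the mean of 1 and 3, which was chosen with earlier results of these data known, called 2 members higher (Thbs1 and Sparc), beside 11.6% of all genes, and 0 lower, beside 11.9%. Spp1, Tnc, Thbs2 and Fn1 did not pass, at edgeR adjusted p-values of 0.983, 0.943, 0.383 and 0.266.

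Thbs1 averaged 16.0 CPM in the libraries numbered 2 against 6.98 and 7.42 CPM in those numbered 1 and 3. Both libraries numbered 2 lay above the other 4, as was so for 20.0% of all genes tested. Number 2 was 2.27-fold the mean of the others (95% interval 1.80 to 2.85), a log2 contrast of 1.18 (SE 0.16), with an edgeR adjusted p of 0.000480 over the numbers. The fold was 2.32 within shControl and 2.15 within shIRS2. Only 0.891% of all genes tested had a log2 contrast at least as large in size. The call held when each library was left out in turn, with log2 contrasts of 1.02 to 1.39.

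Sparc averaged 291 CPM in the libraries numbered 1 against 356 and 343 CPM in those numbered 2 and 3, with an edgeR adjusted p of 0.0125 over the numbers. Both libraries numbered 1 lay below the other 4, a pattern whose share among all genes tested was not counted. The log2 contrast of number 2 was 0.20 (SE 0.06) and that of number 3 against 1 was 0.24. The call was lost without shControl 2, at an adjusted p of 0.159 in edgeR, and without shIRS2 2, at 0.0896.

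Tgfbi averaged 15.4, 15.5 and 21.3 CPM in the libraries numbered 1, 2 and 3, with an edgeR adjusted p of 0.0233 over the numbers and a log2 contrast of number 3 against 1 of 0.48. Both libraries numbered 3 lay above the other 4, and the share of all genes tested that do so was not counted. The call was lost at an edgeR adjusted p of 0.109 without shControl 2 of 0.196 without shControl 3, of 0.104 with no term for the hairpin group and of 0.197 for the contrast of number 2 alone, and at 0.122 in DESeq2. The members called changed when single libraries were left out, and so did the number of genes called among all genes tested. Without shIRS2 3 the log2 contrast of number 2 was -0.45 for Thbs2 and -0.29 for Fn1, against -0.30 and -0.15 with all libraries. Each such fit has 1 residual degree of freedom per gene and leans on the spread pooled over genes.

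**Figure D4:**
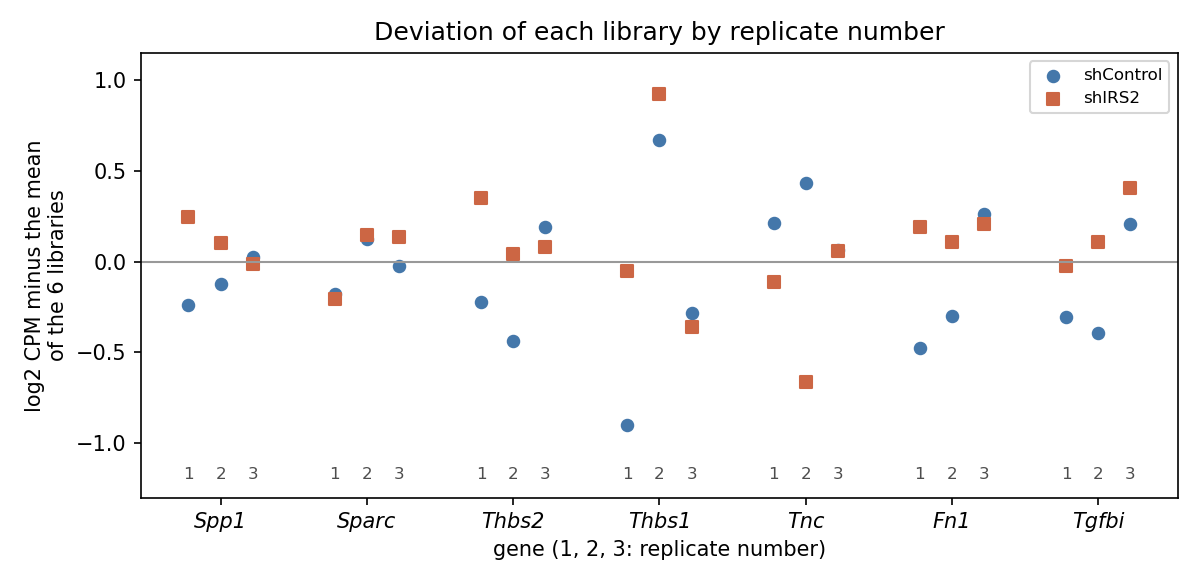
Log2 CPM of each library minus the gene's mean over the 6 libraries, by replicate number, with shControl as blue circles and shIRS2 as orange squares. Both libraries numbered 2 are high in Thbs1, both numbered 1 are low in Sparc and both numbered 3 are high in Tgfbi, while in Tnc the libraries numbered 2 lie at opposite ends.

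Other genes of the matricellular family gave no call between the hairpin groups either. Of 35 other matricellular genes, 8 had 0 counts in all libraries, among them Ccn2, and 17 were tested. Between the hairpin groups 9 were positive and 8 negative, with a median log2 fold change of 0.04, and edgeR called 0, with 0 at an unadjusted p under 0.05. The smallest p-values belonged to Sparcl1, a relative of SPARC, at a log2 fold change of 0.69 (SE 0.31), Fstl1, a secreted SPARC-family glycoprotein, at 0.22 (SE 0.10), and Efemp2, an elastic fibre fibulin, at 0.24 (SE 0.16). Between the numbers 6 of 17 were called, which is 35.3% beside 19.6% of all genes tested. Ccn4, of the CCN family, was higher in number 2, at 82.0 and 67.6 CPM against 47.6 to 54.6 CPM in the other 4 libraries (edgeR adjusted p = 0.000198). Aebp1, a collagen-binding protein, had a log2 contrast of number 2 of -0.25 (SE 0.07) and was highest in number 3, at 332 and 336 CPM (edgeR adjusted p = 0.00103 over the numbers). Efemp2 was higher in number 3 than in number 1, by 0.50 on the log2 scale (edgeR adjusted p = 0.00188 over the numbers). Ccn1, a CCN protein induced by serum and stretch, had the largest log2 contrast of number 2 among these genes, 1.34, but a wide SE of 0.28 and an edgeR adjusted p of 0.119. The contrast of number 2 called 2 of 17 higher and 4 lower, beside 11.6% and 11.9% of all genes.

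Receptors for these proteins gave no call between the hairpin groups. Of 20 genes, 14 were tested, 11 of them positive and 3 negative between the hairpin groups, with a median of 0.10 and 0 called by edgeR, 1 of them, Calr, at an unadjusted p under 0.05. Itgb1, the common beta chain of fibronectin receptors, stood at 552 ± 57.0 CPM in shControl and 626 ± 17.0 CPM in shIRS2 (n = 3 each), Itgav at 139 ± 4.22 and 148 ± 4.05 CPM, and Itga5, the alpha chain that pairs with Itgb1 in the main fibronectin receptor, at 93.7 ± 8.27 and 87.5 ± 6.82 CPM. For Cd47, a thrombospondin receptor, the hairpin difference was 0.22 (SE 0.12), and for Calr, a chaperone that also binds thrombospondin at the cell surface, it was 0.23 (SE 0.08), both on the log2 scale. Cd36, the other thrombospondin receptor listed, had 0 counts. Between the numbers 3 of 14 were called, which is 21.4% and near the 19.6% of all genes tested. Cd44, the hyaluronan and osteopontin receptor, was higher in number 2, at 251 and 275 CPM against 173 to 180 CPM in the other 4 libraries (edgeR adjusted p = 7.84e-05). Lrp1, an endocytic receptor that clears thrombospondins, had a log2 contrast of -0.33 (SE 0.07) and was highest in number 3, at 551 and 543 CPM (edgeR adjusted p = 0.000500 over the numbers). Itgb5 was higher in number 3 than in 1, by 0.35 on the log2 scale (edgeR adjusted p = 0.0294 over the numbers).

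No growth factor regulator or matrix assembly gene of the lists was called between the hairpin groups, and some were called between the numbers. Of 16 genes of the transforming growth factor beta pathway, 15 were tested, with 10 positive and 5 negative between the hairpin groups, a median of 0.03 and 0 called by edgeR, 0 at an unadjusted p under 0.05. Hairpin log2 differences were 0.18 (SE 0.09) for Tgfbr3, a co-receptor, -0.16 (SE 0.14) for Smad7, an inhibitor of the pathway, and 0.17 (SE 0.16) for the ligand Tgfb3. Between the numbers 6 of 15 were called, beside 19.6% of all genes tested. Ltbp1, which tethers latent ligand to the matrix, was higher in number 2 at a log2 contrast of 0.65 (SE 0.06), as was Skil, a SMAD co-repressor, at 0.68 (SE 0.07), while Ltbp3 was lower at -0.43 (SE 0.07). Of 15 cross-linking and assembly genes, 11 were tested, with 8 positive and 3 negative between the hairpin groups, a median of 0.12 and 0 called, 0 at an unadjusted p under 0.05. Plod2 and Plod1, collagen lysyl hydroxylases, had hairpin log2 fold changes of 0.21 (SE 0.13) and 0.18 (SE 0.19), Loxl3, a lysyl oxidase, 0.23 (SE 0.15), and Bmp1, the procollagen protease, 0.20 (SE 0.14). Between the numbers 5 of 11 were called, which is 45.5% beside the same 19.6%. Plod1 was lower in number 2 at a log2 contrast of -0.54 (SE 0.06), as was Bmp1 at -0.22 (SE 0.07), while the fibrillin gene Fbn1 was higher at 0.59 (SE 0.07).

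**Figure D5:**
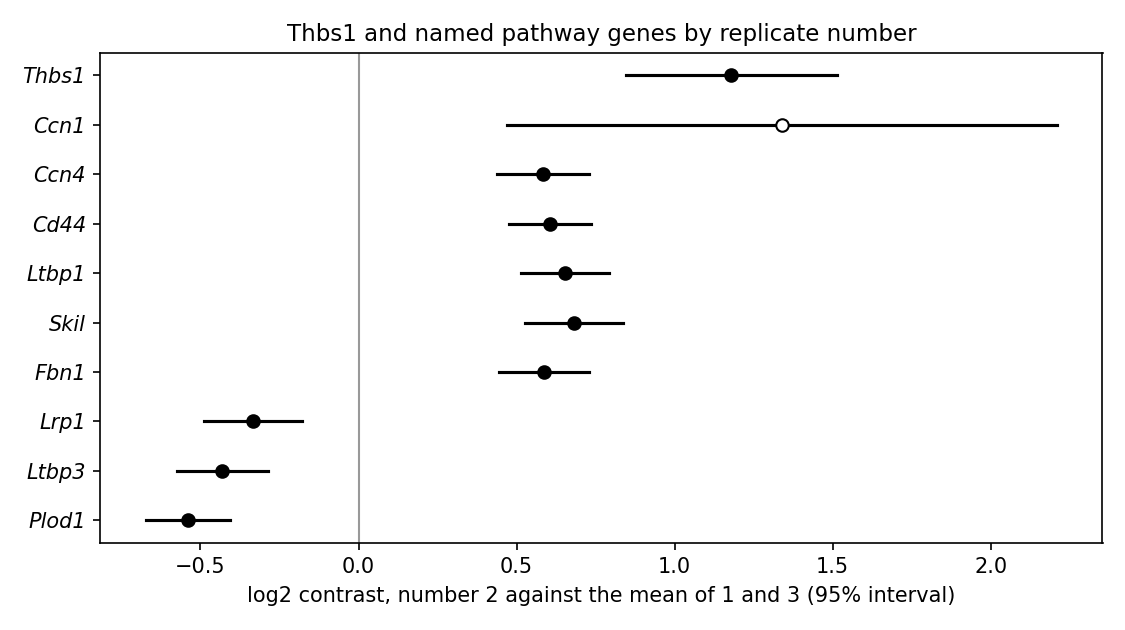
Log2 contrast of the libraries numbered 2 against the mean of those numbered 1 and 3, with 95% intervals, for Thbs1 and 9 pathway genes. Of the pathway genes named for a difference between the numbers, Aebp1, Efemp2, Itgb5 and Bmp1 are not drawn. Filled points passed the edgeR test over the numbers and the open point, Ccn1 at 1.34, did not. Thbs1 lies at 1.18 and Plod1 lowest at -0.54.

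The 3 members that varied most over the 6 libraries were Thbs1, Tnc and Fn1, with SDs of log2 CPM of 0.68, 0.37 and 0.307. The third place was a near tie, since Tgfbi had 0.306. Likeness was measured as the root mean square difference of centred log2 CPM over the 6 libraries, among genes of at least 10 CPM, so these libraries share depth and number effects and no test applies. For Thbs1 the nearest of 9039 genes were Col8a1 at 0.20, Ccn1 at 0.21 and Hivep3 at 0.22, where the median gene lay at 0.63. For Fn1 they were Slc9a9 at 0.05, Col3a1 at 0.06 and Ints6l at 0.07, with a median of 0.31. For Tnc they were Atg14 at 0.17, Tk2 at 0.17 and Ankrd29 at 0.18, with a median of 0.37. Tnc itself averaged 4.51 CPM, under the 10 CPM asked of the other genes. Its counting error was 9.25% to 15.1% of the level in a library, and the distances were not corrected for it. Col3a1, also the highest of the fibroblast markers, stood at 543, 534 and 861 CPM in shControl 1 to 3 and at 852, 750 and 870 CPM in shIRS2 1 to 3, so that it was high and low in the same libraries as Fn1. The 10 fibroblast markers summed to 629 to 967 CPM in shControl and 850 to 989 CPM in shIRS2, at most 119 CPM of it from genes other than Col3a1, and their part in the values of Fn1 was not tested.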

How the data were processed

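Gene counts of 6 libraries were deposited by the authors as whole numbers with no normalization. The authors also deposited FPKM for the same genes, which equal counts over the listed gene length and a library total. That total was not the sum of counts but ran from 0.985 times it in shIRS2 2 to 1.02 times it in shControl 1. The submitters' processing notes name mm10. The aligner, counter and strand setting were not given in the sources used here. Overlapping and antisense genes therefore have uncertain counts. Per the labels' protocols, libraries were poly(A)-selected, dUTP stranded and read as 150 bp pairs. Column names starting NC were read as sh-control and those starting S as sh-IRS2, with the number of the title.

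In R 4.3.3, edgeR 4.0.16 was run after filterByExpr, which kept 13472 genes with 99.9% of counts, and TMM scaling. Hairpin groups were compared by the quasi-likelihood test without further terms, and replicate numbers by a test on 2 degrees of freedom with the group as a term. P-values were adjusted by Benjamini-Hochberg over all genes tested, at 0.05, and tests were two-sided. CPM values use library totals, while overlap between groups was judged on TMM-scaled CPM. DESeq2 1.42.0, limma 3.58.1 (voom, and log2(FPKM + 1)), other scalings, no filter, a replicate block and leaving out libraries were alternatives. The fits were tested on simulated data with the same dispersion for all genes and, in the hairpin comparison, no difference between numbers. Those data therefore do not show what size of difference the hairpin test could detect here.

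Members, lists and the contrast of number 2 were chosen with earlier results of these data known. All members were to be named, with Irs2, the 3 genes of each list with the smallest p in each comparison, 6 fixed genes, and the 3 genes most like each of the 3 most variable members. The 6 genes of the CCN family were matched by Ensembl identifier. Deviations of same-numbered libraries from their group means correlated at 0.167, 0.576 and 0.260 for numbers 1, 2 and 3. Each exceeded 0.1, the rule set for treating the numbers as pairs, which the labels do not state. The hairpin estimates come from the fit without pairs, except where a replicate block is named. Only number 2 stood apart: shControl 1 correlated at 0.189 with shIRS2 3, above its own number, and shControl 3 at 0.199 with shIRS2 1. The rule therefore does not show that numbers 1 and 3 pair the libraries. Nothing in the labels says the libraries came from separate cultures beyond the series text, and the spread that p-values measure may in part be technical. Protein sequences were not used here.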

Additional observations from a re-analysis of the deposited data

Results flagged for a closer look

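Tnc stood apart in one respect. In shControl the library numbered 2 was above both others, at 1.20 times the mean of numbers 1 and 3, and in shIRS2 it was below both others, at 0.618 times that mean. The difference between the groups was not tested, as each group has 1 library numbered 2, and the values rest on 117 and 44 counts.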

How the results depend on the processing

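Between the hairpin groups no setting called a member. Genes called numbered 1 with the replicate block and 6 without a filter on low counts, against 0, and 0 to 0 when single libraries were left out. The replicate block changed no member's call. The log2 fold change was reversed for Sparc without shControl 1 (-0.019) and without shIRS2 2 (-0.0053), and for Thbs1 without shIRS2 2 (-0.19); over single libraries left out they ran from -0.019 to 0.16 and from -0.19 to 0.84, and none was called. Between the numbers, 2638 genes were called in edgeR, 1584 by the DESeq2 likelihood ratio test, and 798 to 3774 when single libraries were left out, lowest without shControl 2, with 973 without shIRS2 2. Members called were 5 without the filter, when Thbs2 and Fn1 joined, and 1 to 5 when single libraries were left out. Of the members not called, the log2 contrast of number 2 was reversed for Spp1 without shControl 3 (0.087) and without shIRS2 1 (0.086), for Fn1 without shControl 3 (0.0084), and for Tnc without shIRS2 2 (0.30) and without shIRS2 3 (0.05). Over single libraries left out these contrasts ran from -0.11 to 0.087, from -0.29 to 0.0084 and from -0.66 to 0.30. The cause was not tested. Counting error limits Tnc (44 to 117 counts per library) most.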
